A study of Drosophila melanogaster with 13 samples.

Results

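The genes described here are 10 genes of the unfolded protein response and the integrated stress response, taken by symbol from both deposited tables of differential expression in ovarian somatic cells of Drosophila melanogaster. All 10 of the symbols asked for had a row in each table, out of 8291 genes in the table of the Armitage knockdown and 8297 in the table of the Yb knockdown. They are the sensors Ire1, PEK, Gcn2 and Atf6, the transcription factors Xbp1 and crc, the chaperones Hsc70-3, Calr and Gp93, and the phosphatase regulator PPP1R15.

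Ovarian somatic cells (OSCs) are a cultured line derived from the follicle cells of the fly ovary, where Piwi and its small RNAs keep transposons silent. Cells of wildtype genotype received small interfering RNA against Armitage (group siARMI, gene armi), against Yb (group siYB, gene fs(1)Yb) or against luciferase, which the fly genome does not encode (group siLUC). All 3 groups were transfected at 0 and 48 h and harvested at 96 h, and each had 3 libraries of poly(A)-selected RNA. The study also holds 4 libraries of cells labelled with 4 mM 4-thiouridine for 10 min, which were not analysed here.

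The endoplasmic reticulum folds secreted and membrane proteins, and misfolded protein there activates the membrane sensors Ire1, PEK and Atf6. Ire1 cuts the Xbp1 transcript so that an active factor is made, PEK phosphorylates the initiation factor eIF2 alpha, and Atf6 is cleaved to release a transcription factor. Gcn2, which senses uncharged transfer RNA, phosphorylates the same initiation factor, and this lowers general translation while raising that of crc, the fly ATF4. Much of this signalling runs through protein and splicing, whereas the tables have 1 row per gene, so they give transcript abundance and do not separate the spliced Xbp1 form.

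The values are the authors' own. The tables hold 1 summary per gene and comparison and no value per library, so no spread between single libraries can be shown. Fold changes are the log2 fold changes of the authors' deposited tables, which had been shrunk toward 0, each with the deposited error after ±. A gene is called where its deposited adjusted p was under 0.05 (Benjamini-Hochberg, BH, over all rows of the table). Whether the 3 libraries came from separate cultures is not in the labels, and the p-values measure the spread between these libraries, which may be technical. The knockdown of armi was present in its own comparison, at −1.92 ± 0.07 on the log2 scale per the authors' deposited table, and so was that of fs(1)Yb, at −2.17 ± 0.51 per the authors' deposited table.

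All 10 transcripts were well detected. In the authors' deposited table for siARMI their mean normalised counts ran between 360.3 for Atf6 and 4338 for Hsc70-3, against a median of 219.2 over all genes. In bulk RNA, fewer cells of a type and less RNA per cell cannot be told apart, and this holds for every comparison given here. Per kilobase of annotated exon, a scale on which genes can be set side by side, Calr stood highest at 1812 normalised counts per kb and Xbp1 followed at 1660. Hsc70-3, which encodes the fly BiP, was at 1209 counts per kb, crc at 1162 and Gp93 at 908.8. The sensors and the phosphatase regulator were lower, with PEK at 364 counts per kb, PPP1R15 at 247.4, Ire1 at 136.2, Atf6 at 88.2 and Gcn2 at 84.5. In the siYB table the same genes took the same places except that crc stood above Hsc70-3, at 332.9 against 315.2 counts per kb, and Gcn2 above Atf6, at 24.4 against 21.2 counts per kb. Each of these means pools the knockdown with the control libraries and comes with no spread, so the order of neighbouring genes carries no test.

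**Figure D1:**
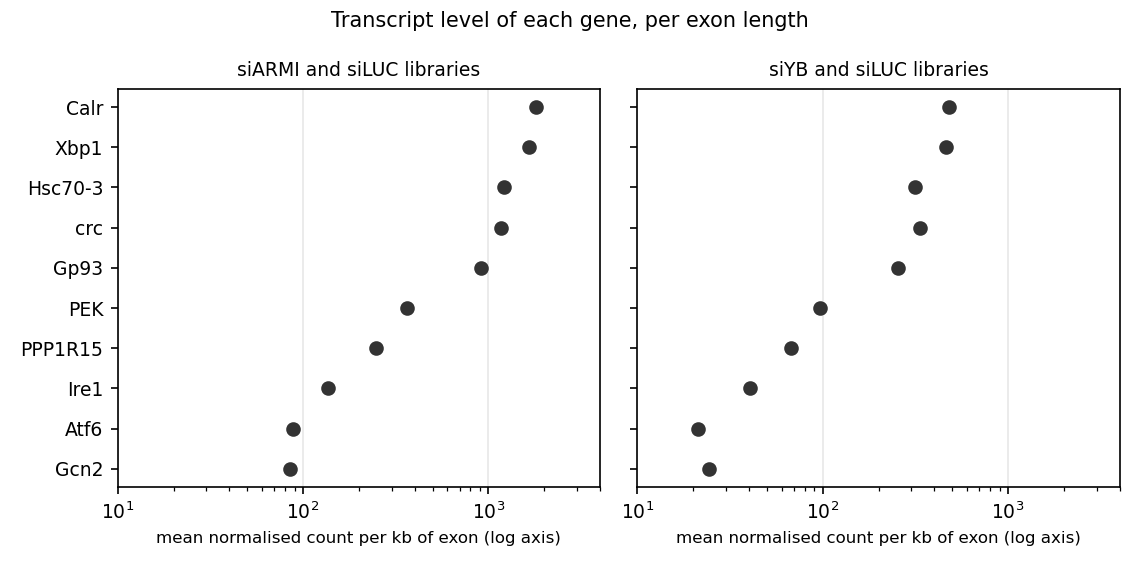
Mean normalised count per kilobase of annotated exon on a log axis for the 10 genes, as the mean over the siARMI and siLUC libraries (left) and over the siYB and siLUC libraries (right), each on the scale of its own deposited table. Calr and Xbp1 are highest in both panels, Gcn2 and Atf6 lowest.

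After Armitage knockdown the sensors and factors of the stress responses moved in both directions, by amounts of 1.57-fold or less. Of the 10 genes, Atf6 and Calr were called higher, Ire1, Gcn2 and crc were called lower, and 5 did not pass the test. The 5 called genes are 50.0% of the 10, beside 28.3% of the 8289 genes tested, of which 14.9% were higher and 13.4% lower. Among the 3211 genes with a mean count at least that of Atf6, the lowest of the 10, 41.4% were called, 21.4% higher and 20.0% lower, so the share called among the 10 is near that of genes with counts as high. The median log2 fold change over the 10 genes was −0.08 and that over all genes was −0.01, per the authors' deposited table. The median size of the change, whatever its sign, was 0.19 for the 10 genes and 0.17 for all genes on the log2 scale.

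**Figure D2:**
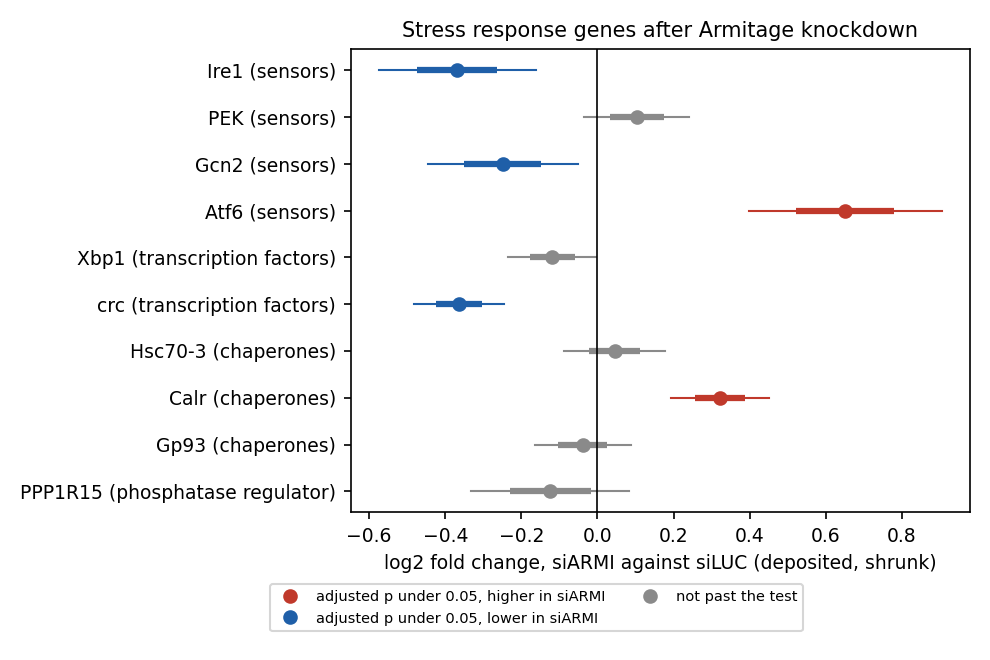
Deposited log2 fold change of each of the 10 genes, siARMI against siLUC, with thick bars for the deposited error and thin bars for a 95% interval computed from it. Atf6 and Calr lie to the right of 0, while Ire1, Gcn2 and crc lie to the left, and the thin bars of these 5 do not reach 0. That of Xbp1, which did not pass after adjustment, ends just short of 0.

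Of the sensors, Atf6 rose and the 2 that passed beside it fell. Atf6 (FBgn0033010; chromosome 2R, 5144733 to 5154756, plus strand, BDGP6.54) was higher by 0.65 ± 0.13 on the log2 scale, or 1.57-fold (BH-adjusted p = 1.59e-06, the authors' deposited table). Of all genes tested, 94.1% had a lower log2 fold change, and its change was the largest among the 10. Ire1 (FBgn0261984; chromosome 3R, 19853908 to 19861291, minus strand), the kinase and RNase that processes Xbp1, was lower at −0.37 ± 0.11 per the authors' deposited table, a change of −22.5% (BH-adjusted p = 0.00171). Gcn2 (FBgn0019990; chromosome 3R, 31395660 to 31402013, plus strand) was lower at −0.25 ± 0.10 (BH-adjusted p = 0.0386, the authors' deposited table), the weakest of the 5 calls. PEK (FBgn0037327; chromosome 3R, 5458563 to 5464753, minus strand), the fly PERK, stood at 0.10 ± 0.07 per the authors' deposited table and did not pass (BH-adjusted p = 0.288). Its 95% interval of −0.03 to 0.24, computed from the deposited error, holds 0 and leaves out a change of the size seen for Ire1.

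The factor of the integrated stress response fell, while that of the Ire1 branch did not pass. The bZIP factor gene crc (cryptocephal; FBgn0000370; chromosome 2L, 21310866 to 21319527, plus strand, BDGP6.54) was lower at −0.36 ± 0.06 per the authors' deposited table, or a change of −22.3% (BH-adjusted p = 1.63e-08). It had the smallest p of the 10 genes in this comparison. In the annotation crc shares 2515 exon bases on the same strand with CG46314, a gene with no row in either table, so the counting of reads from these exons is uncertain. Xbp1 (FBgn0021872; chromosome 2R, 21143545 to 21145750, plus strand) stood at −0.12 ± 0.06 per the authors' deposited table, with an unadjusted p of 0.0424 and an adjusted p of 0.118 (Benjamini-Hochberg). Its 95% interval, which is not adjusted for the number of genes, ran between −0.23 and −0.0028 on the log2 scale.

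Among the 10 genes, calreticulin was the only chaperone of the endoplasmic reticulum that was called. Calr (FBgn0005585; chromosome 3R, 9628691 to 9630851, minus strand), a lectin chaperone that binds newly made glycoproteins, was higher by 0.32 ± 0.07 per the authors' deposited table, or 25.0% more in siARMI cells (BH-adjusted p = 6.36e-06). Hsc70-3 (FBgn0001218; chromosome X, 11801696 to 11807117, minus strand), the Hsp70 chaperone of the compartment and the gene usually read as the marker of an unfolded protein response, stood at 0.05 ± 0.07 (BH-adjusted p = 0.671, the authors' deposited table). Gp93 (FBgn0039562; chromosome 3R, 27948711 to 27952151, plus strand), the Hsp90 chaperone there, stood at −0.04 ± 0.06 (BH-adjusted p = 0.705, the authors' deposited table). The 95% intervals were −0.09 to 0.18 for Hsc70-3 and −0.16 to 0.09 for Gp93 on the log2 scale. With mean counts of 4338 and 2582 these are among the more precise estimates of the 10, and a rise of the size seen for Calr lies outside both intervals. The differences between these genes were not tested. Genes on the opposite strand share 496 exon bases with Ire1, 454 with Gcn2 and 101 with Gp93 in the annotation, and of these partners CG4951, beside Gp93, was called lower at −0.40 (BH-adjusted p = 0.00539, the authors' deposited table). The library kit keeps the strand per the labels' protocols, but whether the counting used it is not given in the sources used here, so reads of these stretches are uncertain.

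PPP1R15 (FBgn0034948; chromosome 2R, 23975599 to 23977255, minus strand) guides a phosphatase to phosphorylated eIF2 alpha and so ends the response. It stood at −0.12 ± 0.11 per the authors' deposited table and did not pass (BH-adjusted p = 0.401). Its 95% interval of −0.33 to 0.08 on the log2 scale is the widest among the 5 genes that did not pass.

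The gene that rose most, Atf6, differs from the others in what the annotation places inside it. It spans 8 annotated transposon insertions, while crc holds 2 INE-1 insertions in introns and the other 8 genes hold none. In Atf6 an insertion of BS3, with one of X inside it, lies over the long 5′ untranslated region of 1 of the transcript models and covers 807 of its exon bases. Copies of INE-1 cover another 52 bases of the 5′ and 396 bases of the 3′ untranslated region. Together 30.7% of the exon bases of Atf6 lie in insertions, and 0 of its coding bases do. The remaining insertions, 2 of INE-1 and 1 each of R1-2 and Cr1a, are intronic. In the siARMI table the sense rows of X-element and Cr1a were called higher, at 1.15 ± 0.17 and 0.74 ± 0.28 (BH-adjusted p = 6.79e-11 and 0.00719, the authors' deposited table). Of the 2426 rows called in this comparison, in either direction, 2348 were genes and the rest were among the 184 transposon rows. A call is therefore not particular to the families found inside Atf6. The X insertion runs on the strand opposite to Atf6, and the row of antisense X-element stood at 0.39 ± 0.44 per the authors' deposited table and did not pass (BH-adjusted p = 0.252). The sense row of INE-1 stood at 0.21 ± 0.44 with a mean count of 4.56 and did not pass (BH-adjusted p = 0.385, the authors' deposited table). Values for BS3, which covers the most exon bases of these families, and for R1-2 were not looked up. How the authors assigned reads that match both a gene and a transposon is not given in the sources used here, and the genome of the cell line may carry other insertions, so the part of these insertions in the rise of Atf6 was not tested.

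**Figure D3:**
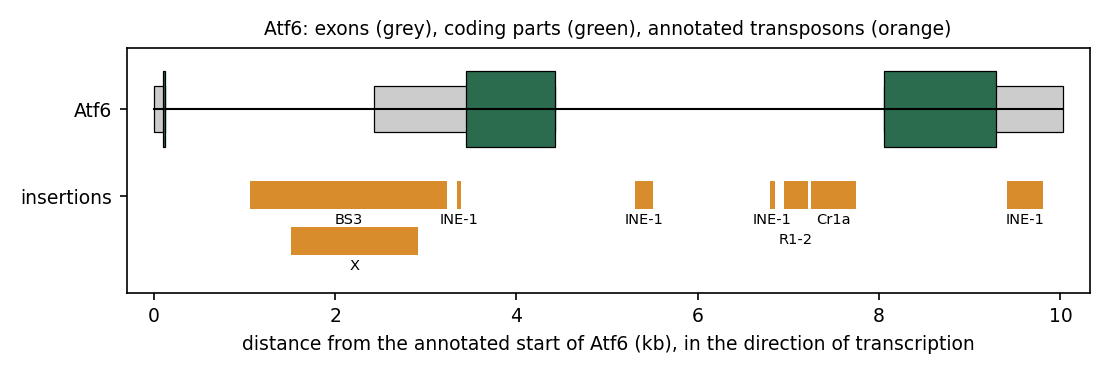
Map of Atf6 along the distance from its annotated start in kilobases, with exons of all transcript models in grey, coding parts in green and annotated transposon insertions in orange. The insertions lie over both untranslated ends and over the introns and leave the coding parts free.

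Most genes for chaperones and folding enzymes of the endoplasmic reticulum did not pass the test after Armitage knockdown. Of 20 measured other than the 3 above, 4 rose, 1 fell and 15 did not pass. The 5 called are 25.0% of the 20, beside 28.3% of all genes tested. Those called higher are 20.0% of the 20, beside 14.9% of all genes, and those called lower are 5.00%, beside 13.4%. Of genes with counts at least that of Atf6 41.4% were called, but mean counts in this list start at 76.7. These 20 had a median log2 fold change of 0.11 per the authors' deposited table, against −0.01 over all genes. The membrane-bound lectin chaperone calnexin, Cnx99A, rose by 0.35 ± 0.08 and the glucosidase subunit GCS2alpha, which trims sugars so that these lectins can bind, by 0.28 ± 0.06 (BH-adjusted p = 1.50e-04 and 9.28e-05, the authors' deposited table). The others were the prolyl isomerase Fkbp14, higher by 0.55 ± 0.19, and the co-chaperone P58IPK, higher by 0.25 ± 0.10 per the authors' deposited table. CG7872 fell, at −0.51 ± 0.09 per the authors' deposited table. Pdi, the protein disulfide isomerase and the most abundant of those that did not pass, stood at −0.13 ± 0.06 (BH-adjusted p = 0.0625, the authors' deposited table).

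Most genes that remove misfolded protein from the endoplasmic reticulum did not pass either. Of 17 measured, 4 rose, 0 fell and 13 did not pass (0 also fell at an unadjusted p under 0.05), with a median log2 fold change of 0.07 per the authors' deposited table. Of genes with counts at least that of Atf6 21.4% were called higher, but mean counts in this list start at 176.2. The 4 called, all higher, are 23.5% of the 17, beside 14.9% of all genes called higher and 28.3% called in either direction. They were Der-1, a derlin of the export channel, at 0.47 ± 0.13, casp at 0.36 ± 0.08, the N-glycanase Pngl at 0.30 ± 0.10 and TER94, the p97 ATPase that pulls substrates out of the membrane, at 0.16 ± 0.05 per the authors' deposited table. Npl4, a partner of TER94, stood at 0.09 ± 0.08 per the authors' deposited table and did not pass.

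Genes of protein entry and glycosylation gave few or mixed calls. Of 21 genes of the translocon, the signal recognition particle and the signal peptidase, Srp54k alone was called (4.76% of the 21), at 0.28 ± 0.10 per the authors' deposited table, and 20 did not pass, among them the channel subunit Sec61alpha at −0.04 ± 0.06 per the authors' deposited table. Over all genes tested 28.3% were called, 14.9% higher and 13.4% lower. None of the 21 was called lower, and 1 was lower at an unadjusted p under 0.05. Of 6 subunits of oligosaccharyltransferase, which attaches sugars to entering proteins, the catalytic Stt3A and Stt3B and the subunit Ost48 fell, at −0.27 ± 0.07, −0.23 ± 0.07 and −0.28 ± 0.08 per the authors' deposited table. Dad1 rose by 0.35 ± 0.14 and 2 did not pass, among them OstDelta at −0.08 ± 0.07 per the authors' deposited table. The subunits called lower are 50.0% of the 6, beside 13.4% of all genes, and Dad1 is 16.7%, beside 14.9% called higher. Of genes with counts at least that of Atf6 20.0% were called lower and 21.4% higher, but mean counts of these subunits start at 240.2.

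Transcripts for the initiation factor on which PEK and Gcn2 act fell. Of 8 subunits of eIF2 and of its exchange factor eIF2B, 5 fell, 0 rose and 3 did not pass (0 also rose at an unadjusted p under 0.05), and the median log2 fold change was −0.29 per the authors' deposited table. The 5 are 62.5% of the 8, beside 13.4% of all genes and 20.0% of genes with counts at least that of Atf6 called lower. All 3 subunits of eIF2 were among the 5, with eIF2beta at −0.34 ± 0.07, eIF2gamma at −0.29 ± 0.07 and eIF2alpha, the kinase substrate, at −0.25 ± 0.09 per the authors' deposited table. Of the exchange factor, eIF2Bdelta stood at −0.35 ± 0.08 and eIF2Bepsilon at −0.30 ± 0.09, both called, and eIF2Bbeta at −0.08 ± 0.10 did not pass per the authors' deposited table.

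Genes known as regulators or targets of ATF4 were called in both directions. Of 15 measured, 4 rose, 4 fell and 7 did not pass, with a median log2 fold change of −0.05 per the authors' deposited table. Of genes with counts at least that of Atf6 21.4% were called higher and 20.0% lower, but mean counts in this list start at 60.7. The 4 in each direction are 26.7% of the 15, beside 14.9% of all genes called higher and 13.4% called lower. At an adjusted p under 0.01, 3 were higher and 1 was lower. Sesn, the sestrin that restrains the growth kinase TOR, rose by 1.06 ± 0.06, and aay, the phosphoserine phosphatase of serine synthesis, by 1.01 ± 0.23 (BH-adjusted p = 7.40e-59 and 2.09e-05, the authors' deposited table). NAT1, an initiation factor, rose by 0.40 ± 0.06 and the one-carbon enzyme gene Nmdmc by 0.34 ± 0.12 per the authors' deposited table. Thor, the fly 4E-BP that represses cap-dependent translation, fell by 1.36 ± 0.29 on the log2 scale (BH-adjusted p = 3.04e-06, the authors' deposited table) at a low mean count of 60.7. The TOR inhibitor scyl at −0.26 ± 0.10, the asparagine synthetase gene AsnS at −0.23 ± 0.09 and the bZIP factor gene Xrp1 at −0.20 ± 0.08 were called lower too, per the authors' deposited table. Shmt, a serine hydroxymethyltransferase gene, stood at −0.11 ± 0.08 per the authors' deposited table and did not pass.

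Around the Ire1 branch, RtcB fell together with Ire1. RtcB encodes the RNA ligase that, in mammals and worms, joins the Xbp1 pieces after Ire1 has cut them, and it was lower at −0.74 ± 0.12 (BH-adjusted p = 1.02e-09, the authors' deposited table). The stress-induced factor gene Atf3 rose by 0.45 ± 0.12 per the authors' deposited table. Of the 6 genes on that list the other 4 did not pass, among them CrebA, a factor for secretory genes, at −0.07 ± 0.10 per the authors' deposited table. RtcB and Atf3 are 33.3% of the 6, beside 28.3% of all genes called. Of genes with counts at least that of Atf6 41.4% were called, but mean counts in this list start at 160.8.

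**Figure D4:**
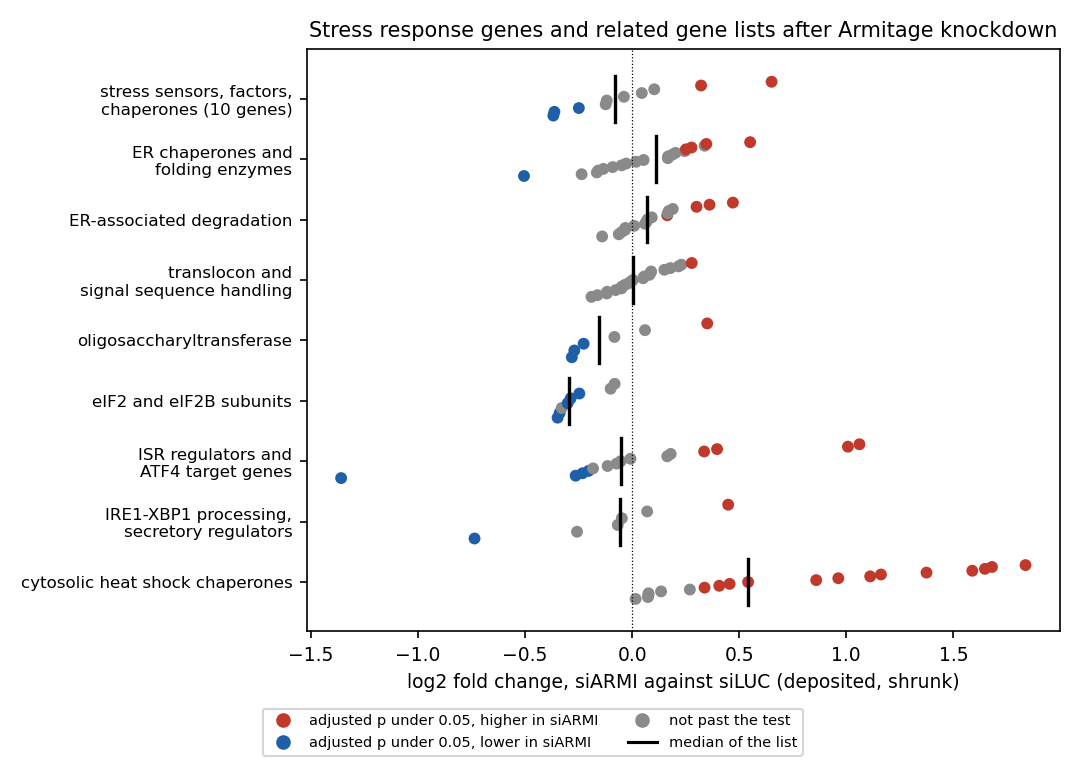
Deposited log2 fold change, siARMI against siLUC, of every measured gene of the stress response set and of 8 related lists, 1 point per gene, with a black line at the median of each list. The lists for folding, degradation, entry and glycosylation in the endoplasmic reticulum have medians between −0.15 and 0.11, with single genes between −0.51 and 0.55. The points of the eIF2 and eIF2B subunits lie left of 0, and the heat shock genes, labelled cytosolic heat shock chaperones, extend to 1.84.

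Of the heat shock genes set beside these chaperones, most of them cytosolic, most were called higher, as a list chosen with that rise already known. Of 19 measured heat shock genes 13 rose, 0 fell and 6 did not pass (0 also fell at an unadjusted p under 0.05), with a median log2 fold change of 0.54 per the authors' deposited table. The 13 are 68.4% of the 19, beside 14.9% of all genes called higher, a share that the choice of the list had fixed in part. Hsp68, an inducible cytosolic Hsp70, rose by 1.84 ± 0.09 per the authors' deposited table, whereas its constitutive relatives stood close to 0, the cytosolic Hsc70-4 at 0.08 ± 0.06 and Hsc70-3 of the endoplasmic reticulum at 0.05 ± 0.07. The small heat shock genes Hsp67Ba and Hsp23 gained 1.68 ± 0.09 and 1.59 ± 0.08, and Hsp26 1.37 ± 0.08, per the authors' deposited table. The near-identical Hsp70 copies may share reads, and without them 10 of 14 rose. That the 2 lists differ was not tested.

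Markers of follicle cells moved in the same comparison. All 6 measured were called, 1 higher and 5 lower, beside 28.3% of all genes called. Among genes with counts at least that of Atf6, 21.4% were called higher and 20.0% lower. Fas3 was higher by 2.13 ± 0.18, and tj, zfh1 and ptc were lower at −0.30 ± 0.07, −0.23 ± 0.08 and −1.25 ± 0.07 per the authors' deposited table. Also called lower were piwi and fs(1)Yb, the latter at −0.26 ± 0.07 (BH-adjusted p = 9.03e-04, the authors' deposited table). Mean counts of the 6 follicle markers lay between 1784 and 7939, while those of the 5 measured germ cell markers lay between 2.29 and 78.0, with vas and aub at 6.34 and 5.43. Of other cell types 11 of 21 markers had a row, of which 4 were called higher and 0 lower. Higher were AGO3 at 1.82 ± 0.25, osk at 1.29 ± 1.43, the muscle marker Mhc at 1.08 ± 0.27 and the hemocyte factor gene srp at 1.05 ± 0.19 per the authors' deposited table. The error of osk was larger than its log2 fold change, so the size of that rise is uncertain. Summed mean counts were 24030 for the follicle markers and 97.1 for those of germ cells, 117.2 for muscle, 342.2 for the neuronal and glial list and 189.4 for the hemocyte and fat body list. The part of these shifts in the stress response values was not tested.

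After Yb knockdown none of the 10 genes passed the test. The deposited adjusted p was 1.00 for each when rounded, and 0 of the 10 were under 0.05 without adjustment per the authors' deposited table, beside 0.555% of the 8295 genes tested. Called genes made up 0.0723% of that table. The smallest unadjusted p of the 10 was 0.485 for crc, followed by 0.530 for Atf6, 0.609 for Calr and 0.782 for Hsc70-3 per the authors' deposited table. The other 6 lay between 0.875 for Gp93 and 0.974 for Gcn2 per the authors' deposited table.

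The siYB estimates cannot show how large a change was. All 10 log2 fold changes had been shrunk to 0.00 with an error under 0.01, and 8458 of the 8480 rows of that table had an error that small, so neither size nor sign can be read from them and no interval can be given. The 8 related lists gave 0 called genes in the siYB table, and 0 of their 112 measured members had an unadjusted p under 0.05. Both comparisons use the siLUC libraries as their control in the study's design, and the difference between the 2 knockdowns was not tested. The 5 calls after Armitage knockdown are therefore not shown to be specific to it.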

How the data were processed

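Members and gene lists were chosen with earlier results of these data known. The authors deposited 1 table for siARMI against siLUC and 1 for siYB against siLUC. Rows of the authors' deposited tables carry, per the file headers, 1 mean normalised count (a signal scaled within the table), 1 log2 fold change with its log2 error, and the p-value before and after adjustment. Salmon 1.7.0, STAR, Bowtie, HOMER, DESeq2 and edgeR are listed, with no role, by the submitters' processing notes, and per the file headers the columns are named as DESeq2 names them.

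The planned count tests need counts per library and were not run. Calls use the deposited adjusted p with a threshold of 0.05, and values recomputed here (a step tested on simulated data) differed from it by at most 3.64e-14. Dividing the log2 fold change by its error does not lead to the p-value beside it, so the deposited log2 fold changes had been shrunk. The file headers do not name the direction of the log2 fold change, which is read here as knockdown over siLUC because armi and fs(1)Yb are negative in their own tables. Depth per library is unknown, and mean counts summed to 6210715 in the siARMI table and 1642735 in the siYB table, on scales of their own. Intervals of 95% use the deposited error and a normal approximation. Transposon rows (184 and 183) were kept apart from genes.

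Positions, exons and insertions were taken from Ensembl release 115 (BDGP6.54), in which all 10 symbols matched. Of 158 symbols on all lists 139 matched a row. Named genes of the other lists were up to 4 called genes per direction with the smallest adjusted p and the most abundant gene that did not pass, and eIF2alpha and the cell type markers are named beyond that rule. A planned list by protein ends and a promoter search were not run. Analyses used Python 3.11.15, pandas 2.3.3 and scipy 1.17.1.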

Additional observations from a re-analysis of the deposited data

How the results depend on the processing

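Adjusting over gene rows only changed no count of calls. Centring on the median of all genes reversed none of the 20 log2 fold changes of the 10 genes. That median was −0.0067 for siARMI and −2.62e-08 for siYB, while the smallest errors among the 10 genes were 0.059 and 0.0014. Centring therefore could not move a value by more than its error, and it carries no information on robustness. At an adjusted p under 0.01 the 10 genes kept 4 calls after Armitage knockdown, without Gcn2, the ATF4 list fell to 4 of 8 (3 higher, 1 lower) and the translocon list to 0 of 1. Counts at this threshold were 4 for folding enzymes, 3 for degradation and 3 for oligosaccharyltransferase, without Dad1. They were 4 for eIF2 and eIF2B, without eIF2alpha, and 11 for the heat shock list. With the adjustment limited to rows that reach the median count, the translocon list had 3 calls. In that setting the folding enzymes had 6 among 18 rows, the ATF4 list 6 among 11 and the heat shock list 11 among 14. Where calls also had to reach 0.5 on the log2 scale in either direction, 1 of the 10 genes was left, which was Atf6. Under that size limit the counts were 2 for folding enzymes, 0 for degradation, 0 for the translocon, 0 for oligosaccharyltransferase, 0 for eIF2 and eIF2B, 3 for the ATF4 list (2 higher, 1 lower) and 1 for the Ire1 list. The count after Yb knockdown was 0 under each of these 4 alternatives. The heat shock list without the Hsp70 copies was added after seeing the data. No paired analysis was possible because the tables hold no value per library, and leaving out single replicates could not be done for the same reason. Depth per library is unknown, so a lack of a call after Yb knockdown sets no bound on a change.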

Other observations

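Annotated transposon insertions inside genes, such as the 8 in Atf6, were uncommon among the genes measured after Armitage knockdown. Of 8089 genes with a matching annotation 8.79% held at least 1, and 0.680% held 8 or more. Genes with at least 1 insertion were called higher in 25.0% of 711 cases and those without in 14.1% of 7378, while the shares called lower were 13.8% and 13.3%, all as read from the authors' deposited table. Genes with an insertion were also longer, with a median span of 20.1 kb against 2.60 kb, and had a higher median mean count of 358.1 against 211.3. Of the 55 genes with 8 or more, Atf6 among them, 34.5% were called higher and 9.09% lower. The median span of these 55 was 30.7 kb and their median mean count 245.4. The part of length and of counts in the difference between these shares was not tested.

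Among the measured genes next to the 10, Sox14, a transcription factor gene beside PPP1R15, rose by 1.50 ± 0.13 (Benjamini-Hochberg adjusted p = 2.18e-31, the authors' deposited table), while PPP1R15 itself did not pass. SpdS, the spermidine synthase gene beside Calr, was called higher at 0.37 ± 0.16 per the authors' deposited table. The measured neighbours of Atf6, gus at 0.20 ± 0.10 and Nipped-A at −0.08 ± 0.10, did not pass per the authors' deposited table. These neighbours were named after their values were seen.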
